A study of Homo sapiens with 6 samples.

Results

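The subject here is the RNA made from mitochondrial DNA in a T-cell leukemia line. Members were chosen by symbol: every identifier in the count files whose symbol begins with MT-, which gave 37 genes of 78932 identifiers. They are 13 mRNAs, 2 rRNAs and 22 tRNAs, and they are all the genes that GENCODE 29 lists on the mitochondrial chromosome. The cells were Karpas-45, an established line that the labels describe as leukemic blasts from bone marrow, and total RNA was the material taken for sequencing. How library preparation treated each class of RNA was not tested, so reads by class are not levels in the cell. In 3 libraries the cells carried a scramble control (genotype WT in the labels), and in 3 they carried the hairpin shMEF2CKD2 (genotype MEF2C KD). The hairpin came in a lentiviral vector with a GFP tag, GFP-positive cells were sorted 120 hours after transduction, and no group received a drug. The comparison asks what changes when the transcription factor MEF2C is targeted, with 1 line, 1 hairpin and libraries that the labels call technical replicates, and the p-values below therefore speak only of that technical spread.

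Human mitochondrial DNA is a small circle whose genes have no introns and lie almost end to end. Both strands are transcribed as long precursors, and most of the tRNAs sit between the longer genes, where their excision releases the mRNAs and rRNAs. The heavy strand gives 28 of the members, among them 12 mRNAs and both rRNAs. The light strand gives the other 9, which are MT-ND6 and 8 tRNAs. The mRNAs encode core subunits of respiratory complexes I, III, IV and V, and the enzymes that copy, transcribe and process this genome are all imported from the cytosol as products of nuclear genes.

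MT-ND6, the only light-strand mRNA, differs in base makeup from the others. The first 60 bases of MT-ND6 and of its neighbour MT-ND5, which is read from the heavy strand, are shown with each G in capitals (GENCODE 29 transcripts, GRCh38; chrM:14614-14673 on the minus strand and chrM:12337-12396 on the plus strand).
MT-ND6: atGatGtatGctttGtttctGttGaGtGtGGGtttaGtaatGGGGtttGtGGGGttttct
MT-ND5: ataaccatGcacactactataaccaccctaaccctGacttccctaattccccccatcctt
These stretches hold 21 and 2 G. Over its whole length MT-ND6 has 35.6% G and 7.05% C, while the 12 heavy-strand mRNAs have 6.28 to 16.2% G and 29.5 to 36.0% C.

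Among the tRNAs, MT-TP rose, and MT-TY and MT-TA had the lowest fold changes. All of them are light-strand tRNAs, and they are printed whole with the anticodon in capitals (GENCODE 29 transcripts, GRCh38, minus strand; chrM:15956-16023, chrM:5826-5891 and chrM:5587-5655).
MT-TP: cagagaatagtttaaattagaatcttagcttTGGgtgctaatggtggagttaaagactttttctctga
MT-TY: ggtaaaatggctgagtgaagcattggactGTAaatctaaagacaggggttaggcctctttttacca
MT-TA: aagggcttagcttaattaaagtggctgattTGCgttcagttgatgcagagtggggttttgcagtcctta
They serve proline, tyrosine and alanine.

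A pair of overlaps bears on what the counts can show, because a read that falls in more than 1 gene is counted for neither. The last bases of MT-ATP8 and MT-ND4L are shown with the part that also belongs to the next gene, MT-ATP6 or MT-ND4, in capitals (GENCODE 29 transcripts, GRCh38, plus strand; chrM:8493-8572 and chrM:10727-10766).
MT-ATP8: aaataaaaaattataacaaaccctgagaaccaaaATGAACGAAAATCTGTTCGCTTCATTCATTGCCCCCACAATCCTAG
MT-ND4L: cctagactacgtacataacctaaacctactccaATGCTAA
The overlaps are 46 and 7 bases long. Length-scaled levels below therefore use only the bases of a gene that no other mitochondrial gene shares, such as 161 of the 207 bases of MT-ATP8.

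Libraries held 45560303 to 97077335 reads assigned to genes, and mitochondrial genes took 1788143 to 3538546 of these. Reads that aligned to more than 1 place took 3.56 to 6.86% of all reads in 5 libraries and 16.1% in MEF2C hairpin replicate 3. MEF2C itself received 0 to 2 reads per library, under the floor of 3 reads used for detection, so it could not check the labels. The T-lineage identity of the cells was visible in CD3D, at 381 ± 7.70 and 407 ± 9.27 CPM (reads per 1000000 gene reads after scaling, mean ± SD over 3 libraries), and in LCK, at 822 ± 5.14 and 870 ± 7.37 CPM. The 11 T-lineage markers summed to 2914 to 3004 CPM under scramble and 3095 to 3189 CPM under the hairpin, with 8 higher and 1 lower (72.7% and 9.09%, where 13.5% and 15.3% of all tested genes were higher and lower), and their part in the results below was not tested. Among the 11, CD2 and TRBC1 were lowest, at means of 2.73 and 6.68 CPM under scramble and 3.55 and 6.31 CPM under the hairpin. Markers of other cells were also low in each library. The 6 myeloid genes summed to 1.64 to 2.60 CPM and 4 B-lineage genes to 2.16 to 3.30 CPM. Sums were 0.800 to 5.995 CPM for 4 erythroid and megakaryocytic genes (PF4 at 0 reads) and 2.33 to 3.61 CPM for 4 embryonic kidney genes (LIN28B at 0 reads).

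Mitochondrial genes gave a smaller part of the library under the MEF2C hairpin. Their share of gene reads was 3.82, 4.02 and 3.83% under scramble and 3.63, 3.65 and 3.51% under the hairpin (replicates 1 to 3 in order). The groups did not overlap, and the means were 3.89 ± 0.115% and 3.59 ± 0.0750% (SD, n = 3 each). The two-sided exact permutation p was 0.10, the smallest that 3 against 3 allows (adjusted p = 0.138 over 11 quantities compared in this way). Mitochondrial mRNAs made up 85.6 to 87.3% of mitochondrial reads in the 6 libraries, rRNAs 12.6 to 14.3% and tRNAs 0.0897 to 0.103%. In bulk RNA, fewer mitochondrial genomes per cell and less RNA from each cannot be told apart, and neither was measured.

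Of the 37 members, 27 passed the filter on low counts: all mRNAs, both rRNAs and 12 tRNAs. Under the MEF2C hairpin 13 of the 27 were lower and 1, MT-TP, was higher by edgeR's quasi-likelihood test at an adjusted p under 0.05. Of all 17677 genes tested, 28.8% passed that threshold, 15.3% lower and 13.5% higher. The groups did not overlap for 17 of the 27 members, against 39.9% of all genes, a share that was not split by level. The background depends on level: of the 2546 genes with a mean of at least 100 CPM, where all mitochondrial mRNAs and rRNAs lie, 44.9% were lower, and of the 15131 genes under 100 CPM, where all mitochondrial tRNAs lie, 10.4% were lower. So 6 of 13 mRNAs lower is close to the share among other abundant genes. The 6 count MT-ND4 and MT-ND4L separately, although they lie on 1 mRNA. The median log2 fold change was -0.12 for the mRNAs, -0.05 for genes of at least 100 CPM and 0.00 for all genes.

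**Figure D1:**
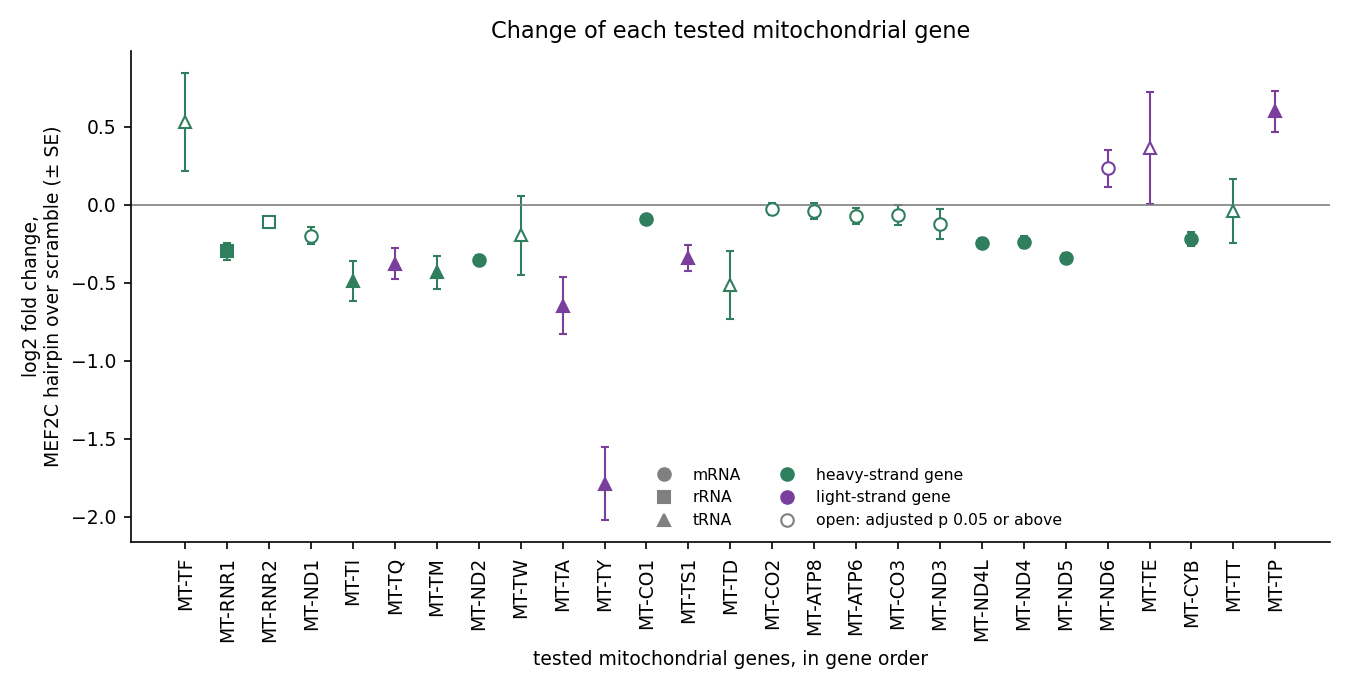
Log2 fold change of MEF2C hairpin over scramble (vertical axis, with SE) for the 27 tested mitochondrial genes in their order along the genome (horizontal axis), with marker shape for RNA class, colour for strand and filled markers for adjusted p under 0.05. The mRNAs from MT-CO1 to MT-ND3 lie between -0.12 and -0.03, MT-ND2 and MT-ND5 at -0.36 and -0.34, MT-TY lowest at -1.79 and MT-TP highest at 0.60.

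Complex I, the NADH dehydrogenase, takes 7 of its core subunits from this genome, and 4 of the 7 genes fell. These include MT-ND4 and MT-ND4L, which lie on 1 mRNA and are counted separately. Of all genes with a mean of at least 100 CPM, 44.9% were lower. MT-ND2, part of the proton-pumping membrane arm, measured 1893, 2078 and 1960 CPM in the scramble group and 1550, 1588 and 1497 CPM under the hairpin (replicates 1 to 3 in order). Every hairpin library lay below every scramble library, and the log2 fold change was -0.36 ± 0.0337 SE (adjusted p = 2.76e-05 by edgeR). MT-ND5, the large subunit at the far end of that arm, measured 3088, 3236 and 3016 CPM in the scramble group and 2537, 2472 and 2356 CPM in the hairpin group. These groups were also apart, with a log2 fold change of -0.34 ± 0.0297 SE (adjusted p = 3.7e-06 by edgeR). MT-ND2 thus fell by 21.8% and MT-ND5 fell by 21.1%.

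MT-ND4 and MT-ND4L, whose reading frames overlap on 1 mRNA, fell by nearly the same amount. MT-ND4 went from 5323, 5674 and 5224 CPM to 4688, 4633 and 4397 CPM (log2 fold change -0.24 ± 0.0379 SE, adjusted p = 0.00332 by edgeR). MT-ND4L went from 1048, 1091 and 1056 CPM to 920.5, 927 and 849 CPM (log2 fold change -0.24 ± 0.0276 SE, adjusted p = 2.75e-06 by edgeR). For both genes the highest hairpin library lay under the lowest scramble library. MT-ND4L received 19.7 ± 0.489% as many reads as MT-ND4 in the scramble group and 19.7 ± 0.345% in the hairpin group (SD, n = 3 each), so their ratio differed by less than the spread between replicates. The log2 ratio between groups was 0.00 with all libraries and 0.0083 without hairpin replicate 3.

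The remaining heavy-strand mRNAs of complex I did not pass the test. MT-ND1, which lies nearest the quinone-binding site, measured 1948, 2109 and 1926 CPM in the scramble group and 1805, 1763 and 1641 CPM in the hairpin group. Its groups did not overlap, but the log2 fold change of -0.20 had an SE of 0.0551 and an edgeR adjusted p of 0.0595. It passed without hairpin replicate 3 (-0.16, edgeR adjusted p = 0.000883) and without scramble replicate 2 (-0.16, edgeR adjusted p = 0.000527). With all 6 libraries and a fold change of -0.20, it passed under other filters and models. These were the DESeq2 Wald test (adjusted p = 0.00362), edgeR with no filter (adjusted p = 8.75e-16) and edgeR with a replicate block (adjusted p = 2.10e-09). The call of MT-ND1 thus depends on filter and model. MT-ND3, the shortest of them after MT-ND4L, measured 311 to 365 CPM in the scramble group and 278 to 331 CPM in the hairpin group, which overlap (log2 fold change -0.12, edgeR adjusted p = 0.449).

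MT-ND6 had an estimate of the opposite sign to the rest of its complex. It measured 121, 151 and 143 CPM in the scramble group and 169, 171 and 145 CPM under the hairpin (replicates 1 to 3 in order). Hairpin replicates 1 and 2 lay above all scramble libraries, while replicate 3 lay between the second and the highest of them. Against all genes the log2 fold change of 0.23 did not pass the test (SE 0.119, edgeR adjusted p = 0.255). Against the mitochondrial mRNA total it did, at 0.39 (SE 0.0499, edgeR adjusted p = 3.48e-13). MT-ND6 took 0.360, 0.425 and 0.430% as many reads as the 12 heavy-strand mRNAs in the scramble group and 0.543, 0.552 and 0.495% in the hairpin group, and every hairpin library lay above every scramble library. The mean log2 ratio was 0.39 higher in the hairpin group (two-sided exact permutation p = 0.10, the smallest possible, and adjusted p = 0.138 over the 11 quantities compared in this way).

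Strand matters for MT-ND6, since the heavy-strand RNA passes through the same stretch of DNA, and no source used here gives the strand setting of the counting. The counts themselves bear on it. Of 505 genes whose exons were at least 99% covered by exons on the other strand alone, 31.5% received at least 10 reads over the 6 libraries, as did 32.8% of 34778 genes not covered by others. Of 472 genes covered in the same way on their own strand, 3.18% did. At a minimum of 100 reads the shares were 11.1%, 23.0% and 2.33%, so genes covered on the other strand fell below uncovered genes but stayed above those covered on their own. Counting that ignored strand would treat both kinds of covered gene alike. What share of reads carried the wrong strand was not tested.

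Complex III takes 1 subunit from this genome, cytochrome b. Its mRNA MT-CYB measured 3126, 3368 and 3120 CPM in the scramble group and 2837, 2789 and 2623 CPM in the hairpin group. The groups were apart, and the gene fell by 14.2% (log2 fold change -0.22 ± 0.0437 SE, adjusted p = 0.0139 by edgeR).

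Of the complex IV (cytochrome c oxidase) mRNAs 1 of 3 fell, where 44.9% of all genes of at least 100 CPM were lower. MT-CO1, which carries the catalytic heme and copper centre and was the most abundant mitochondrial mRNA, measured 8194, 8280 and 8091 CPM in the scramble group and 7665, 7830 and 7559 CPM in the hairpin group. Its groups did not overlap, and it fell by 6.15%, a small change that passed the test with close replicates (log2 fold change -0.09 ± 0.0162 SE, adjusted p = 2.57e-05 by edgeR). MT-CO2, which accepts electrons from cytochrome c, measured 2896, 3106 and 2851 CPM in the scramble group and 2955, 2944 and 2776 CPM in the hairpin group. These ranges overlap, and the log2 fold change was -0.03 (SE 0.0393, edgeR adjusted p = 0.665). MT-CO3, the third core subunit, measured 2755 to 3075 CPM in the scramble group and 2595 to 2867 CPM in the hairpin group, again overlapping (log2 fold change -0.06, edgeR adjusted p = 0.563).

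Neither mitochondrial gene of complex V, the ATP synthase, passed the test. MT-ATP6, the subunit that forms the proton path beside the rotor ring, measured 2203 to 2439 CPM in the scramble group and 2089 to 2241 CPM in the hairpin group (log2 fold change -0.07, edgeR adjusted p = 0.381). MT-ATP8, a short subunit of the stator, measured 707 to 772 CPM in the scramble group and 671 to 730 CPM in the hairpin group (log2 fold change -0.04, edgeR adjusted p = 0.652). MT-ATP8 took 31.3 to 32.1% as many reads as MT-ATP6 in the scramble group and 32.1 to 32.8% in the hairpin group.

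**Figure D2:**
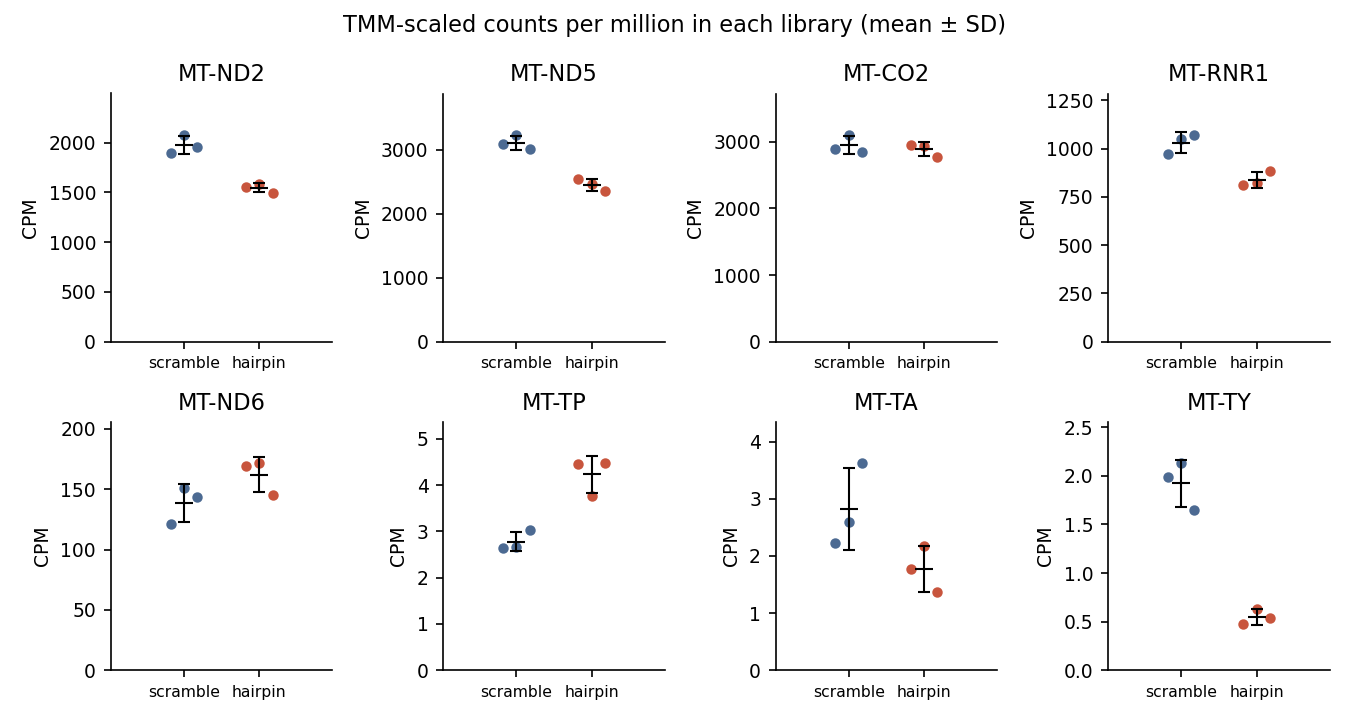
TMM-scaled CPM (vertical axes from 0) of 8 mitochondrial genes in the 3 scramble and 3 MEF2C hairpin libraries, with points for libraries and bars for mean ± SD. The groups are apart for MT-ND2, MT-ND5, MT-RNR1, MT-TP, MT-TA and MT-TY, and they overlap for MT-CO2 and MT-ND6.

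The makeup of the mitochondrial mRNA pool was described by complex. Complex I mRNAs took 40.8, 41.1 and 40.8% of mitochondrial mRNA reads in the scramble group and 38.4, 38.0 and 37.9% under the hairpin (replicates 1 to 3 in order). Complex IV mRNAs took 41.1, 40.5 and 41.2% and then 43.1, 43.6 and 43.9%. Complex III went from 9.34 ± 0.0717% to 8.97 ± 0.0891% and complex V from 8.83 ± 0.146% to 9.44 ± 0.0644% (SD, n = 3 each). For each of these 4 shares the groups did not overlap, with a two-sided exact permutation p of 0.10, the smallest possible (adjusted p = 0.138 over the 11 quantities). Shares of one total are not independent of each other.

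**Figure D3:**
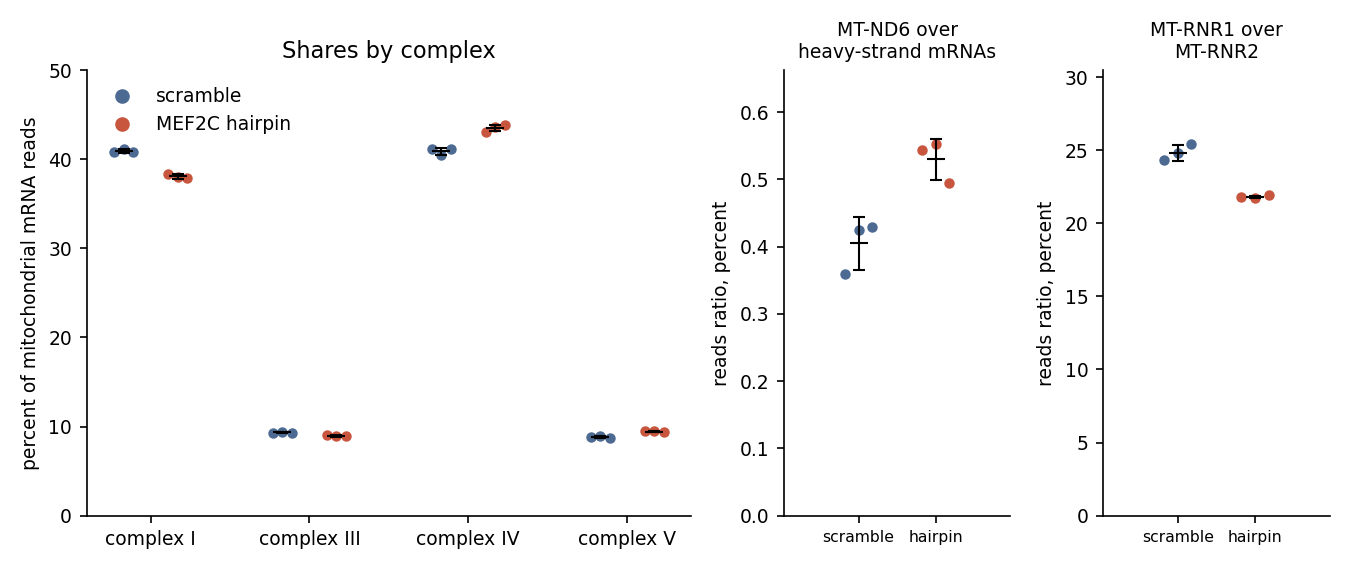
Left, the share of mitochondrial mRNA reads (percent, vertical axis) that fell in the mRNAs of each complex, per library with mean ± SD, and right, the reads of MT-ND6 over the 12 heavy-strand mRNAs and of MT-RNR1 over MT-RNR2, in percent, on axes from 0. Complex I lies at 40.8 to 41.1% in the scramble group and 37.9 to 38.4% in the hairpin group.

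A fit over all genes with the summed reads on the 13 mRNAs as library size asked which members moved against that total. In it 5 members were higher and 5 lower, while 35.3% of all tested genes were higher and 1.68% lower, on a scale that follows a total with a lower mean share under the hairpin (median log2 fold change of all genes 0.16). Each mRNA is itself part of that total, so a fall of some mRNAs raises the others on this scale. The higher members were MT-ND6 at 0.39 (SE 0.0499, edgeR adjusted p = 3.48e-13), MT-TP at 0.76, MT-CO2 at 0.13, MT-ATP8 at 0.12 and MT-CO3 at 0.10. Against all genes MT-CO2, MT-ATP8 and MT-CO3 had estimates of -0.03, -0.04 and -0.06 and did not pass the test. The lower members in this fit were MT-ND2 at -0.19 (SE 0.0413, edgeR adjusted p = 2.65e-05), MT-ND5 at -0.18 (SE 0.0400, edgeR adjusted p = 5.63e-05), MT-RNR1 at -0.13 (SE 0.0431), MT-TA at -0.50 (SE 0.175) and MT-TY at -1.63 (SE 0.248). The calls of MT-ND6, MT-TP, MT-ND2, MT-ND5 and MT-TY held in all 11 alternatives of this fit, and the other 5 did not. MT-ATP8 and MT-CO3 each lost theirs in 6 of 11, among them the fit with no filter and those without scramble replicate 1 or 3 or hairpin replicate 1 or 2. MT-RNR1 lost its call in 4, which include leaving out scramble replicate 3 or hairpin replicate 1 or 2. MT-TA lost its call without scramble replicate 3 (-0.25, edgeR adjusted p = 0.355) and without hairpin replicate 3 (-0.38, edgeR adjusted p = 0.109). MT-CO2 lost its call when the median of ratios over the 13 mRNAs replaced their sum (edgeR adjusted p = 0.0705), as did MT-ATP8, MT-CO3 and MT-RNR1. In all, 6 members were called with the median of ratios and 6 without scramble replicate 3.

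Per length, the order of the mRNAs was much the same in both groups, on a scale of CPM per kilobase of unshared length. This scale does not restore reads lost because they also touch a neighbouring gene, and MT-ATP8 has only 161 unshared bases. Reads of MT-ATP6 may also be split with a nuclear copy described below. The order is thus that of counted reads, and the part of such losses in it was not tested. In scramble libraries MT-CO1 was highest at 5310 ± 61.6, followed by MT-ATP8 at 4528 ± 231 and MT-CO2 at 4314 ± 199, whose ranges are within their spread of each other. MT-ND4, MT-CO3, MT-ND4L and MT-ATP6 came next, between 3628 and 3944 and close to their spread. MT-CYB lay at 2809 ± 124, MT-ND1 at 2086 ± 105, MT-ND2 at 1897 and MT-ND5 at 1718 ± 61.9. MT-ND3 at 973 ± 77.7 and MT-ND6 at 264 ± 30.0 were the lowest (SD, n = 3 each). In MEF2C hairpin libraries MT-ND4 and MT-ND4L lay at 3335 ± 113 and 3100 ± 149, below MT-CO3 at 3533 ± 191 and MT-ATP6 at 3447 ± 132, and MT-ND6 at 308 ± 27.7 was again the lowest.

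**Figure D4:**
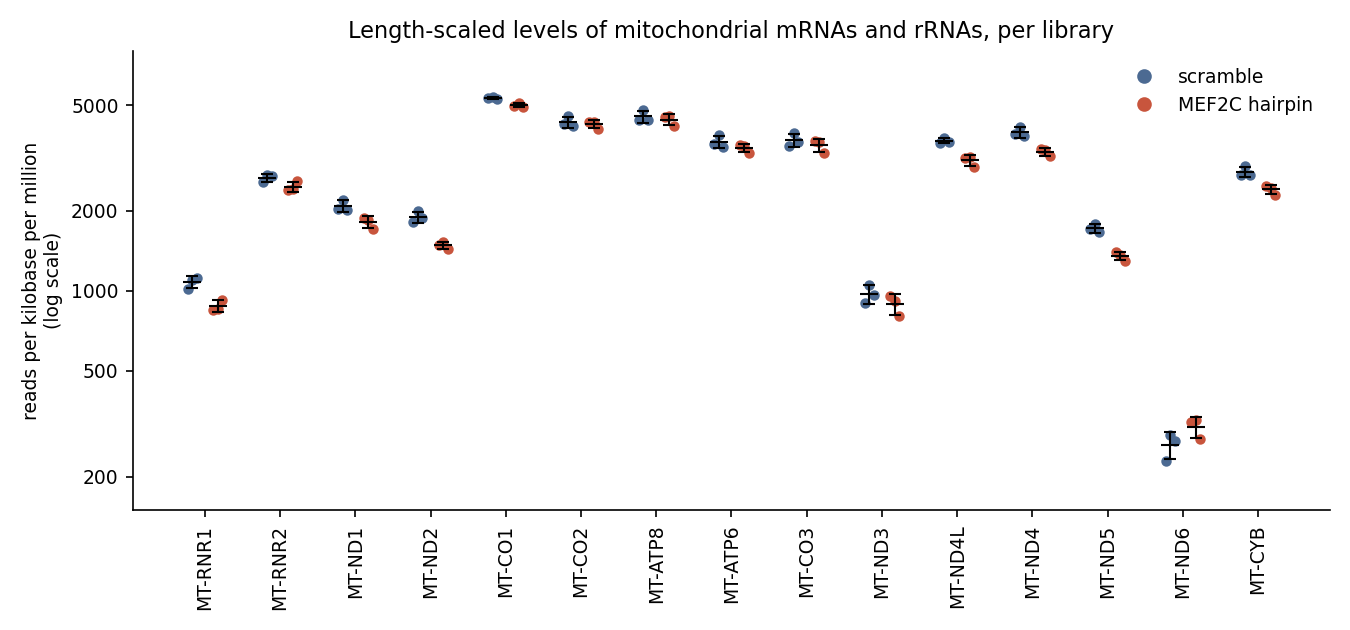
Length-scaled levels (CPM per kilobase of unshared length, log axis) of the 13 mRNAs and 2 rRNAs in gene order, with points for the 3 scramble and 3 MEF2C hairpin libraries and bars for mean ± SD. MT-CO1 is highest at 5310 in the scramble group and MT-ND6 lowest at 264.

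Of the rRNAs, the small-subunit MT-RNR1 fell and the large-subunit MT-RNR2 did not pass the test. MT-RNR1 measured 971, 1051 and 1071 CPM in the scramble group and 811, 819 and 886 CPM in the hairpin group, with every hairpin library below every scramble library (log2 fold change -0.30 ± 0.0543 SE, adjusted p = 0.0138 by edgeR). MT-RNR2 measured 3996, 4237 and 4217 CPM and then 3722, 3764 and 4043 CPM, where hairpin replicate 3 alone overlaps the scramble range (log2 fold change -0.11 ± 0.0377 SE, adjusted p = 0.0747 by edgeR). The contrast in calls depends on single libraries, on the filter and on the model. MT-RNR2 passed the test without hairpin replicate 3, the library with 16.1% of reads aligned to more than 1 place (-0.15, edgeR adjusted p = 2.28e-06). It also passed without scramble replicate 1 (-0.14, edgeR adjusted p = 0.00175) and without scramble replicate 2 (-0.09, edgeR adjusted p = 0.0405). With all 6 libraries it passed with no filter (-0.11, edgeR adjusted p = 6.24e-07) and with a replicate block (-0.11, edgeR adjusted p = 1.88e-05). Reads on MT-RNR1 were 24.3, 24.8 and 25.4% of those on MT-RNR2 in the scramble group and 21.8, 21.8 and 21.9% in the hairpin group. These groups do not overlap (two-sided exact permutation p = 0.10, the smallest possible, and adjusted p = 0.138 over the 11 quantities). The genes lie side by side near the start of the heavy-strand transcript, with MT-TV between them.

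Reads on the rRNAs were 14.8, 14.8 and 15.8% of those on the mRNAs in the scramble group and 14.5, 14.7 and 16.7% in the hairpin group (two-sided exact permutation p = 1.0). The third replicate of each group was highest, and it was also the one with the most reads aligned to more than 1 place in its group, 6.86% and 16.1%. Their part in this ratio was not tested. Without MEF2C hairpin replicate 3 the log2 ratio between groups was -0.05 in place of 0.01.

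Of the 22 tRNA genes 10 received almost no reads. Among them 6 had none in any library (MT-TN, MT-TK, MT-TG, MT-TR, MT-TH and MT-TL2), and a count of 0 allows up to 3 reads, or 0.0309 to 0.0658 CPM depending on the library. MT-TV and MT-TS2 had 3 reads each in all, MT-TC 8 and MT-TL1 11. The tested 12 had 188 to 3150 reads over the 6 libraries. The sets differed in their surroundings: each tested tRNA gene had no neighbour on its own strand on 1 side or a gap of at least 70 bases there, while no gap beside the other 10 exceeded 31 bases. A read that runs from a tRNA into the next gene on the same strand is counted for neither, so these values are not levels of mature tRNA.

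Reads on light-strand tRNAs moved in both directions, and among them were both the highest and the lowest fold change of all members. Heavy-strand RNA passes through these genes too. The share of wrong-strand reads in their low counts, here and below, was not tested. MT-TP, the first gene that the light-strand transcript reaches, received 165, 119 and 181 reads in the scramble group and 265, 372 and 232 reads in the hairpin group. That is 2.64, 2.67 and 3.02 CPM against 4.46, 3.77 and 4.47 CPM, without overlap (log2 fold change 0.60 ± 0.134 SE, adjusted p = 0.000583 by edgeR). MT-TE, which lies next to MT-ND6 on the same strand, measured 0.321 to 0.550 CPM in the scramble group and 0.481 to 0.608 CPM in the hairpin group (log2 fold change 0.36 ± 0.358 SE, adjusted p = 0.509 by edgeR). MT-TE and MT-ND6 follow MT-TP in light-strand order, and their estimates were also above 0, but neither passed the test against all genes.

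Further along the light strand the 4 tested tRNAs fell, while MT-TN and MT-TC had too few reads to test. MT-TY dropped from 124, 95 and 99 reads to 28, 62 and 28 reads, or from 1.99, 2.13 and 1.65 CPM to 0.471, 0.628 and 0.539 CPM. It fell by 71.1%, far outside the spread of either group (log2 fold change -1.79 ± 0.232 SE, adjusted p = 1.04e-07 by edgeR). MT-TA fell from 2.23, 2.60 and 3.62 CPM to 1.77, 2.17 and 1.37 CPM (log2 fold change -0.65 ± 0.183 SE, adjusted p = 0.00587 by edgeR), a call that was lost without scramble replicate 3 (-0.42, edgeR adjusted p = 0.131). MT-TQ fell by 0.38 and MT-TS1 by 0.34 on the log2 scale (edgeR adjusted p = 0.00257 and 0.00183).

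Of the 6 tested heavy-strand tRNAs, 2 fell. MT-TI went from 3.91, 3.99 and 4.18 CPM to 2.90, 2.91 and 2.79 CPM (log2 fold change -0.49 ± 0.130 SE, adjusted p = 0.00351 by edgeR). MT-TM, the initiator and elongator methionine tRNA that precedes MT-ND2, went from 6.04, 5.96 and 6.17 CPM to 4.76, 4.39 and 4.31 CPM (log2 fold change -0.43 ± 0.107 SE, adjusted p = 0.00164 by edgeR). MT-TD, just before MT-CO2, had a log2 fold change of -0.52 that did not pass the test (SE 0.218, edgeR adjusted p = 0.0745), although its groups did not overlap. MT-TW at -0.20 and MT-TT at -0.04 overlapped between groups. MT-TF, the first gene of the heavy-strand transcript, measured 0.403 to 0.625 CPM in the scramble group and 0.655 to 0.875 CPM in the hairpin group, without overlap, an estimate of 0.53 with an SE of 0.315 that did not pass the test (edgeR adjusted p = 0.230). Altogether 6 of the 12 tested tRNAs were lower and 1 higher, with a median log2 fold change of -0.36, while 10.4% of all genes under 100 CPM were lower and their median was 0.02.

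Near-identical nuclear copies of mitochondrial sequence can take up or remove reads of some members. Of 404 identifiers named as such copies 75 had any read and 5 passed the filter. The largest was MTATP6P1, with 390 ± 41.0 CPM in the scramble group and 377 ± 39.5 CPM in the hairpin group (mean ± SD, n = 3; log2 fold change -0.04, edgeR adjusted p = 0.847). It is identical to MT-ATP6 at 98.5% of 681 aligned bases. In the first 120 bases of MT-ATP6 only the base in capitals differs from it (GENCODE 29 transcripts, GRCh38, plus strand, chrM:8527-8646).
MT-ATP6: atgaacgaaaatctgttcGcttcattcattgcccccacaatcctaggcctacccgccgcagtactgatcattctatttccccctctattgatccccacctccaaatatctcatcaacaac
The level of MT-ATP6 is uncertain, since reads may have been split between it and MTATP6P1. MTND2P28 (98.4% identical to MT-ND2) fell from 28.3 ± 1.98 to 22.3 ± 1.01 CPM (mean ± SD, n = 3; log2 fold change -0.34, edgeR adjusted p = 4.62e-06), close to the -0.36 of MT-ND2. MTCO1P12 (98.7% identical to MT-CO1) had a log2 fold change of -0.14 (edgeR adjusted p = 0.280) and MTCO2P12 (98.2% identical to MT-CO2) one of -0.64 (edgeR adjusted p = 0.442). MTND6P21, only 66.0% identical to MT-ND6, rose from 0.257 ± 0.0979 to 0.555 ± 0.0912 CPM (mean ± SD, n = 3; log2 fold change 1.07 ± 0.401 SE, adjusted p = 0.0412 by edgeR).

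The nuclear genes that keep, transcribe and process mitochondrial DNA were lower more often than higher, by small amounts. Over 4 lists 82 of 83 genes were tested, of which 28 were lower and 5 higher, a share of 34.1% lower beside 15.3% of all genes, with a median log2 fold change of -0.05. By level, 11 of the 15 with a mean of at least 100 CPM were lower, beside 44.9% of all genes at that level, and 17 of the 67 under it, beside 10.4%. Without MEF2C hairpin replicate 2 the number past the threshold was 21 in place of 33. In the replication list 8 of 18 were lower and 3 higher. ATAD3A, a membrane ATPase tied to mitochondrial nucleoids, fell from 97.2 ± 1.71 to 80.01 ± 1.78 CPM (mean ± SD, n = 3; log2 fold change -0.28 ± 0.0296 SE, adjusted p = 1.07e-09 by edgeR). TWNK, the replicative helicase, was at -0.16, RNASEH1, which removes RNA from RNA-DNA hybrids, at -0.14, and TOP3A and DNA2, which also act in the nucleus, at -0.17 and -0.12.

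Of 15 tested transcription genes 4 were lower and none higher (26.7% lower, beside 15.3% of all tested genes). That background share is not matched for level. TFAM, PPRC1 and GABPA, which were lower, had means of 140, 122 and 118 CPM. Of all genes with a mean of at least 100 CPM, 44.9% were lower. TFAM, which packages mitochondrial DNA and starts transcription at both strands' promoters, measured 147 ± 2.53 and 133 ± 0.866 CPM (mean ± SD, n = 3; log2 fold change -0.15 ± 0.0248 SE, adjusted p = 1.3e-05 by edgeR). PPRC1 and ESRRA, regulators of mitochondrial gene programmes, were at -0.10 and -0.18, and GABPA, an ETS factor of nuclear respiratory genes, at -0.10. The ESRRA call was lost in 6 of 15 alternatives, that of GABPA in 3 and that of PPRC1 in 1.

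RNA processing and decay gave 8 lower and 1 higher of 25 tested (32% and 4%, beside 15.3% and 13.5% of all tested genes). These background shares are not matched for level. The one that rose was HSD17B10, a dehydrogenase that is also a subunit of the RNase P that cuts the 5′ ends of mitochondrial tRNAs, from 44.2 ± 0.422 to 68.4 ± 1.36 CPM (mean ± SD, n = 3; log2 fold change 0.63 ± 0.0355 SE, adjusted p = 6.83e-17 by edgeR). PNPT1 and SUPV3L1, which together degrade mitochondrial RNA, were at -0.15 each, the latter lost without MEF2C hairpin replicate 2. LRPPRC, which stabilises heavy-strand mRNAs, was at -0.07, a call lost in 6 of 15 alternatives. PDE12, a deadenylase, was at -0.10 and the helicase DDX28 at -0.16, lost in 1 and 4 of 15 alternatives.

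Among rRNA and tRNA modifying enzymes 9 of 25 were lower and 1 higher (36% and 4%, beside 15.3% and 13.5% of all tested genes). Again the background shares are not matched for level. NSUN2, a cytosine methyltransferase of cytosolic and mitochondrial tRNAs, fell from 211 ± 4.58 to 153 ± 1.17 CPM (mean ± SD, n = 3; log2 fold change -0.46 ± 0.0238 SE, adjusted p = 5.87e-18 by edgeR). QTRT2, a subunit of the enzyme that puts queuine into tRNAs, was at -0.27, and ALKBH1, which acts on mitochondrial tRNA methylation, at -0.29. PUS1 and RPUSD4, both pseudouridine synthases, were at -0.18 and -0.22, and CDK5RAP1, a tRNA methylthiotransferase, at -0.17. Each of these 6 calls held in all 15 alternatives.

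**Figure D5:**
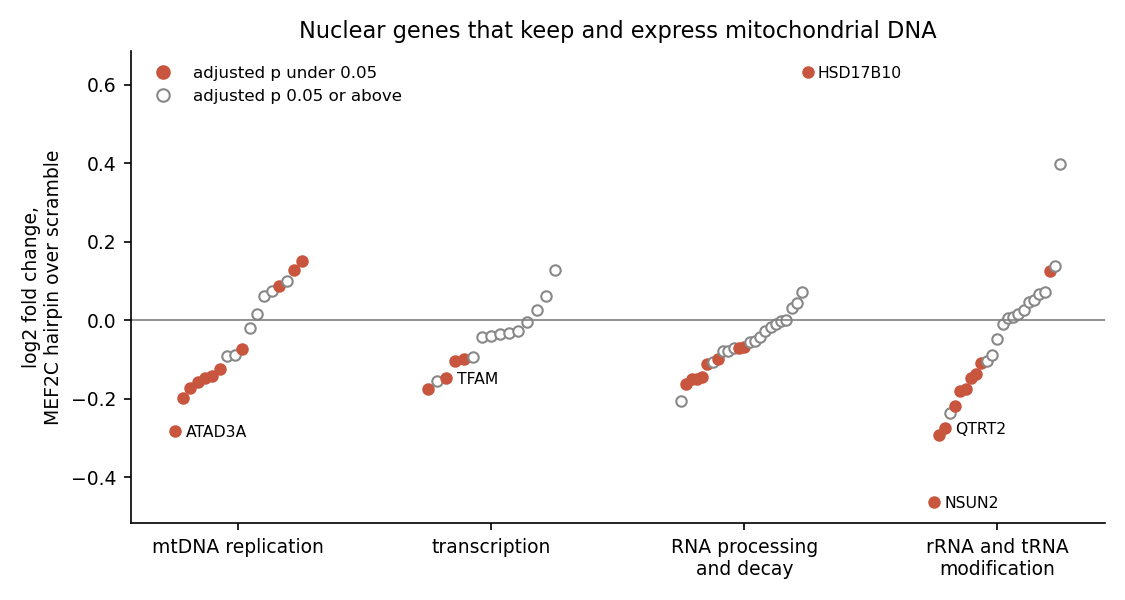
Log2 fold change of MEF2C hairpin over scramble (vertical axis) for the tested nuclear genes in 4 lists (horizontal axis, genes spread by value), filled where the adjusted p is under 0.05. NSUN2 is the lowest at -0.46 and HSD17B10 the highest at 0.63.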

How the data were processed

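The authors deposited whole-number read counts per gene, 1 file per library, with no normalization. Per the submitters' processing notes, reads went through Trim Galore, STAR and HTSeq on hg38; versions, annotation release and strand setting are not given in the sources used here. The 5 summary lines of each file stayed out of library sizes and tests and took 19.2 to 31.4% of reads. Symbols came from a table that matched 77.9% of identifiers by stable ID, and positions and sequences from GENCODE 29 on GRCh38.

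Low genes were dropped with filterByExpr (minimum count 10). The rest were scaled by TMM and tested in edgeR 4.0.16 (R 4.3.3) with a robust quasi-likelihood fit and group as the only term, on all 6 libraries. Fold changes set the hairpin group over the scramble group. The SE of a log2 fold change is its size divided by the root of the F statistic. Benjamini-Hochberg adjustment ran over all 17677 genes, with a threshold of 0.05. CPM use TMM-scaled library sizes. A further fit used the reads on the 13 mitochondrial mRNAs as library size. Ratios were compared by exact permutation in scipy 1.17.1. Replicates of a group differed by more than sampling noise, at 3.31 to 4.50 chi-square units per gene. On simulated counts for the 17677 genes, the test recovered 25 of 50 genes simulated with a log2 change of 0.25 in size, 23 of 50 at 0.5, 37 of 50 at 1 and 48 of 50 at 2, and called 11 of 17477 unchanged genes.

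Named are all mRNAs, rRNAs and tested tRNAs, MEF2C, up to 6 genes per nuclear list with the smallest adjusted p, and tested nuclear copies. CD3D, LCK, CD2 and TRBC1 were added after their values were seen. The members and lists were chosen with earlier results of these data known. Alternatives were other scalings and filters, DESeq2 1.42.0, limma-voom 3.58.1, a replicate block and leaving out each library.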

Additional observations from a re-analysis of the deposited data

How the results depend on the processing

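Over 15 alternatives 13 to 17 mitochondrial genes passed the threshold, beside 14, and MT-TP was the 1 higher gene in each. Across all genes the count ranged from 4113 to 5127, beside 5097. Several directions near 0 were not stable. With gene totals and no scaling factor, MT-CO2, MT-ATP8 and MT-TT turned to 0.015, 0.0051 and 0.0038. Leaving out 1 library at a time moved MT-TW between -0.46 and 0.019, MT-CO2 between -0.055 and 0.010, MT-ATP8 between -0.062 and 0.0043 and MT-TT between -0.12 and 0.0035. It also moved the log2 rRNA to mRNA ratio between -0.051 and 0.052, and that of MT-ND4L to MT-ND4 between -0.022 and 0.014. In the same way nuclear list genes past the threshold ranged from 21 to 30, beside 33. Members called against the mitochondrial mRNA total ranged from 6 to 11, beside 10, and were 6 with the median of ratios. MT-ND1 and MT-RNR2 passed the threshold in 5 of 15 alternatives each, MT-ATP6 in 2 and MT-TD in 1. Replicate numbers did not pair the libraries (correlations of same-numbered deviations -0.014, -0.014 and -0.0031). With a replicate block 17 mitochondrial genes passed, and 15 against the mitochondrial mRNA total. The cause of these moves was not tested. Precision is limited by 3 technical replicates a group, 1 hairpin and a target below detection, and floors cover counting error only.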
